A study of Homo sapiens with 42 samples.

Results

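The region described here is a 190 kb stretch of human chromosome 9, chr9:112100001-112290000 in hg19, which is reported to hold the gene PTPN3 and which was picked because its contacts with a fountain-like structure lay higher in the later S-phase fractions. It was followed in all 42 libraries of the series. Its members are 19 windows of 10 kb, or 38 windows of 5 kb, and they held 23800 of 686700 listed contacts, 3.47% of the series. The region was chosen by the measured shares of these contacts in the sorted fractions, so the differences between fractions below are a description, and nothing is rested on them.

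The cells were K562-FUCCI, a chronic myeloid leukaemia line that carries the FUCCI cell-cycle reporter at AAVS1, and G1 and S cells alike carried it and had been stained with 10 uM Hoechst33342 for 45 min. Asynchronous cultures were sorted into the S-phase fractions S1 to S6 and into G1, fixed with formaldehyde, cut with DpnII and ligated in the nucleus. Ligation products were then read outward from a Proximal and a Distal primer inside the structure and from an Outside primer beyond it, a linear primer-extension form of chromosome conformation capture named q3C in the labels. Each of the 21 combinations of primer and fraction had 2 libraries. All groups come from 1 cell line. The labels do not say whether the paired libraries stem from separate cultures, and any p-value therefore measures the spread between libraries alone, part or all of which may be technical.

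In chromosome conformation capture, pieces of DNA that lie close together in the fixed nucleus are ligated to each other, and the frequency of a ligation product stands for how often 2 places meet. A chromatin fountain is a plume of contacts that spreads from a narrow base, and in replicating cells such patterns have been discussed in connection with coupled replication forks. PTPN3 encodes a cytosolic protein tyrosine phosphatase with a FERM domain and a PDZ domain. In RefSeq on GRCh38.p14 the gene is 162.7 kb long, with EPB41L4B, a FERM-domain protein gene, as the protein-coding gene before it and PALM2AKAP2, which encodes an anchoring protein for protein kinase A, as the one after it. The microRNA gene MIR3927 and the pseudogene YBX1P6 lie inside it. An hg19 annotation was not used here, so the ends of PTPN3 are not placed among the windows.

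RefSeq gives 4 promoter windows for PTPN3, each of 300 bases on the minus strand of chromosome 9. A junction in this assay forms at the DpnII sequence GATC, which reads the same on both strands, and the motif was in 0 of the 4 windows, whereas 41.7% of 35116 RefSeq promoter windows of the same length held it. No match says only that these letters are not in the windows. The 4 windows held 0, 5, 4 and 45 CG pairs in order of position, against a median of 14 over all promoter windows. The CG-rich window, chr9:109498258-109498557 in GRCh38.p14, is shown because it is the CG-dense start that RefSeq gives for the gene after which the stretch is named. It is printed 5′ to 3′ along the gene with every CG in capitals, and its place among the hg19 contacts was not worked out.
PTPN3 promoter window: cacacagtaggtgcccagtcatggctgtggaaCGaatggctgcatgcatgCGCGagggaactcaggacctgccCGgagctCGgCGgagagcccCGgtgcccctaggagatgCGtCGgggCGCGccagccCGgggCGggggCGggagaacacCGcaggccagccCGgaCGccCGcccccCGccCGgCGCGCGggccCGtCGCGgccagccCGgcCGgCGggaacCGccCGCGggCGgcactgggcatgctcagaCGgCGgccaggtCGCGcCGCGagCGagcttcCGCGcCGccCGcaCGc

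Every list had 16350 contacts, an equal number whose origin the labels do not give, and the depth of sequencing behind it is unknown. The viewpoint of a primer was taken as its most listed position. The lower border of the stretch lay 475.1 kb above the Proximal viewpoint, 575.0 kb above the Distal one and 989.9 kb above the Outside one. Contacts on chromosome 9 within 2 Mb of the viewpoint but not within 20 kb of it, called local here, numbered 6149 to 10957 per library. A library had 105 to 1183 contacts in the stretch. The 2 libraries of a group differed over the 19 windows by a chi-square of 0.826 to 3.43 per degree of freedom, so most pairs spread more than counting error.

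Seen from all 3 primers, the stretch took its smallest share of local contacts in G1 or S1 and its largest in S4 or S6. The Proximal share was 8.55% and 7.81% in the G1 libraries, 8.18% and 8.01% in S1, 9.19% and 10.3% in S2, 11.2% and 11.6% in S3, 12.6% and 13.3% in S4, 12.3% and 10.9% in S5, and 11.3% and 11.7% in S6. From this primer, the closest, both S4 libraries stood above all others and S1 lay within the range of G1. The S4 mean of 12.9% ± 0.46 compares with 11.4% ± 0.31 in S3 (SD, n = 2 each), and the S6 mean of 11.5% ± 0.25 was lower than that of S4, with a log2 ratio of -0.17.

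The Distal share was 4.84% and 4.96% in G1, 4.71% and 4.43% in S1, 5.86% and 5.35% in S2, 6.91% and 7.06% in S3, 8.08% and 8.07% in S4, 7.99% and 7.90% in S5, and 8.37% and 8% in S6. From the Distal primer the climb took place between S1 and S4, with steps of 1.04, 1.38 and 1.09 percentage points between successive fractions and no overlap of libraries at any of them. The level then stayed between 7.90% and 8.37% in the 6 libraries of S4 to S6.

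The Outside share was 1.26% and 1.204% in G1, 1.46% and 1.41% in S1, 1.64% and 1.43% in S2, 1.67% and 1.63% in S3, 1.82% and 2.05% in S4, 2.16% and 2.05% in S5, and 2.36% and 2.01% in S6. Outside was the only primer with a higher mean in each fraction than in the one before it, although neighbouring fractions overlapped at 4 of the 6 steps. The first step, S1 at 1.44% ± 0.030 over G1 at 1.23% ± 0.038 (SD, n = 2 each), had no overlap. For Distal the same step ran the other way, with S1 at 4.57% ± 0.19 and G1 at 4.90% ± 0.080.

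These shares rest on different numbers of contacts. The 95% Wilson interval of a single library ran from 11.9% to 13.3% for the first Proximal S4 library and from 0.995% to 1.45% for the second Outside G1 library. The intervals cover counting error only, since a listed line need not be an independent molecule.

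**Figure D1:**
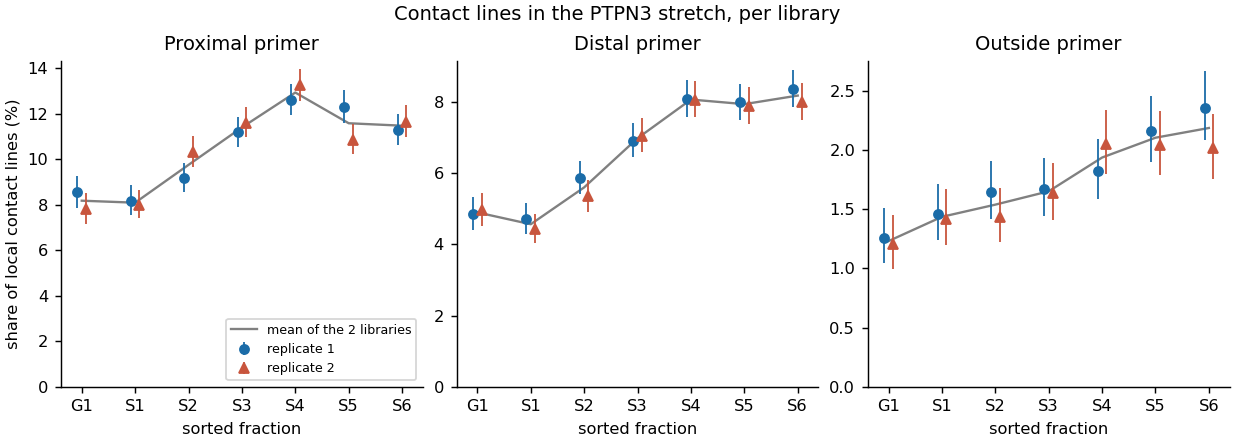
Share of local contacts that fell in the PTPN3 stretch (%, y axis from 0) against the sorted fraction, G1 to S6, in a panel per primer. Points are libraries with their 95% Wilson intervals and the line joins the means of the 2 libraries; Proximal is highest in S4 (12.6% and 13.3%), Distal is level from S4 to S6 (7.90% to 8.37%) and Outside ends highest in S6 (2.36% and 2.01%).

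When fractions were joined, Distal and Outside separated the later from the earlier S fractions and Proximal did not. Distal libraries ranged from 7.90% to 8.37% with a median of 8.03% in S4 to S6, against 4.43% to 7.06% with a median of 5.61% in S1 to S3. Outside libraries ranged from 1.82% to 2.36% with a median of 2.05% in S4 to S6, against 1.41% to 1.67% with a median of 1.54% in S1 to S3. Proximal libraries ranged from 10.9% to 13.3% with a median of 11.98% in S4 to S6, against 8.01% to 11.6% with a median of 9.76% in S1 to S3. The overlap in Proximal came from the S3 libraries, which reached the level of S5 and S6.

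As log2 ratios of means, S4 to S6 over S1 to S3 gave 0.30 ± 0.061 for Proximal, 0.50 ± 0.017 for Distal and 0.43 ± 0.026 for Outside, where the SD is that of the values from replicate 1 and replicate 2 alone (n = 2). Against G1 the ratios of S4 to S6 were 0.55 ± 0.081, 0.72 ± 0.044 and 0.75 ± 0.0067 in the same order of primers, with no overlap of libraries for any primer. Window by window, the mean of S4 to S6 lay above that of S1 to S3 in 17 of 19 Proximal windows, all 19 Distal windows and 16 of 19 Outside windows. Of all windows with a mean of at least 10 contacts, 50.0%, 46.8% and 50.3% did so. Only 8 of the 19 Outside windows had that mean. The choice of the stretch used these shares, so the counts are a description and are no check of its name. Proximal was already at its S5 and S6 level in S3 and was lower after S4.

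The size of these ratios depends on what the contacts are divided by. Local contacts were themselves more numerous in S phase, with a mean of 8504 in S4 to S6, 7974 in S1 to S3 and 6205 in G1 for Proximal. As a share of the whole library the stretch gained more, with log2 ratios of S4 to S6 over G1 of 1.01, 1.08 and 1.02 from Proximal, Distal and Outside. Proximal libraries held 5.75% to 7.24% of all their lines in the stretch in S4 to S6, against 2.99% and 3.22% in G1. Repeated listing differed too. Proximal had 2.37 ± 0.23 contacts per distinct position of the stretch in S4 to S6 (SD, n = 6), 2.09 ± 0.24 in S1 to S3 (SD, n = 6) and 1.96 ± 0.27 in G1 (SD, n = 2). In the same order, Distal had 1.57 ± 0.11, 1.43 ± 0.11 and 1.38 ± 0.021, and Outside 1.59 ± 0.21, 1.56 ± 0.31 and 1.29 ± 0.12. By fraction, the Proximal mean was highest in S6, at 2.46, as was that of all its local contacts, at 2.48. Over all local contacts, the values in the same order were 2.35, 2.25 and 2.18 for Proximal and 1.68, 1.65 and 1.55 for Distal. For Outside they were 2.26, 2.29 and 2.01. When distinct positions replaced contacts, the log2 ratio of S4 to S6 over S1 to S3 was 0.19, 0.39 and 0.37 from Proximal, Distal and Outside. The part of repeated listing in the gain was not tested.

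Along the stretch, contacts were densest at the lower end, which faces the viewpoints. Window levels are given as contacts per 10000 local contacts. For Proximal the 4 highest windows over its 14 libraries were 112110001 to 112120000 with a mean of 91.0, 112100001 to 112110000 with 77.5, 112160001 to 112170000 with 76.0 and 112130001 to 112140000 with 70.3. The lowest were 112270001 to 112280000 with 32.0 and 112260001 to 112270000 with 32.6. Distal shared 3 of those 4 leading windows, at 55.8, 45.9 and 50.1 for the first 3, and had 112120001 to 112130000 with 42.5 as the other one. Its lowest windows were 112220001 to 112230000 with 21.7 and 112270001 to 112280000 with 22.4.

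The Outside profile differed at the far end. Its highest window was the last of the stretch, 112280001 to 112290000, with 13.6, followed by 112110001 to 112120000 with 13.5, 112130001 to 112140000 with 13.0 and 112120001 to 112130000 with 11.9. The lowest were 112220001 to 112230000 with 4.66 and 112270001 to 112280000 with 4.76, so the window from 112270001 was among the lowest pair for each primer. The levels of the 19 windows had a Pearson correlation of 0.94 between Proximal and Distal, 0.80 between Distal and Outside and 0.68 between Proximal and Outside. All primers read the same digested DNA. The number of groups of listed positions at most 4 bases apart, from 23 to 49 per window, had a correlation of 0.51, 0.52 and 0.33 with the level for Proximal, Distal and Outside. These correlations are over neighbouring windows that are not independent.

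The log2 ratios of S4 to S6 over S1 to S3 did not follow 1 common profile along the stretch. Their correlation over the 19 windows was 0.07 between Proximal and Distal, 0.27 between Distal and Outside and -0.31 between Proximal and Outside.

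**Figure D2:**
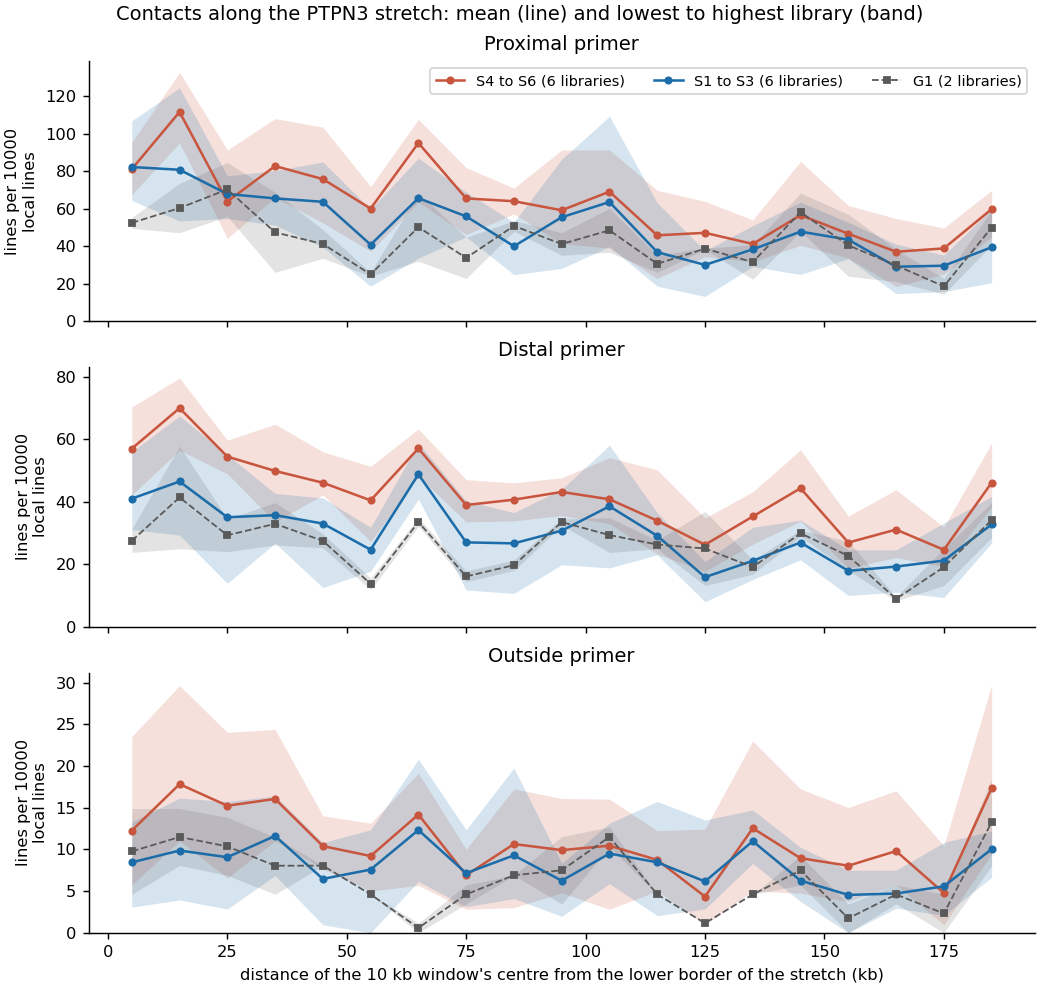
Contacts per 10000 local contacts (y axis from 0) in the 19 windows of 10 kb, placed by the distance of their centre from the lower border of the stretch (kb), in a panel per primer. Lines are the means of S4 to S6, S1 to S3 (6 libraries each) and G1 (2 libraries), and bands run from the lowest to the highest library; the Proximal and Distal profiles fall away from the lower end, whereas Outside has its highest mean, 13.6, in the last window.

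The window with most contacts from Proximal and Distal, 112110001 to 112120000, shows the course. From Proximal its S4 to S6 libraries ranged from 95.0 to 132.7 with a median of 110.6, against 53.4 to 124.5 with a median of 78.1 in S1 to S3 and 47.2 and 73.5 in G1. The groups overlapped because 1 S3 library reached 124.5. From Distal its S4 to S6 libraries ranged from 56.5 to 79.5 with a median of 70.1, against 29.3 to 67.4 with a median of 45.1 in S1 to S3 and 25.0 and 57.8 in G1. From Outside its S4 to S6 libraries ranged from 11.02 to 29.7 with a median of 15.2, against 3.93 to 16.1 with a median of 9.05 in S1 to S3, and both S5 libraries, at 29.7 and 24.6, stood above the rest.

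The first window of the stretch, 112100001 to 112110000, differed between primers. From Proximal its S4 to S6 libraries ranged from 67.5 to 95.3 with a median of 80.2, against 64.4 to 106.8 with a median of 75.4 in S1 to S3, so the later libraries lay inside the range of the earlier ones, and G1 was lower at 55.3 and 49.5. From Distal the S4 to S6 libraries ranged from 42.2 to 70.3 with a median of 57.1, against 31.1 to 55.9 with a median of 41.0 in S1 to S3 and 23.8 and 31.3 in G1. The log2 ratio of S4 to S6 over S1 to S3 was -0.02 for Proximal and 0.48 for Distal.

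The window 112160001 to 112170000, among the leading windows from Proximal and Distal, had its highest mean in S4 from Proximal and Outside and in S5 from Distal. From Proximal its S4 to S6 libraries ranged from 63.5 to 107.6 with a median of 100.8, against 33.7 to 86.9 with a median of 74.7 in S1 to S3 and 68.3 and 31.9 in G1. From Distal they ranged from 48.1 to 63.3 with a median of 58.5, against 40.9 to 58.7 with a median of 46.6 in S1 to S3 and 32.1 and 34.9 in G1. From Outside the 12 S libraries ranged from 5.68 to 20.8 with a median of 12.9, whereas the G1 libraries held 1 contact in this window between them, at 1.15 and 0.0 per 10000.

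At the poor end, the groups of 112270001 to 112280000 overlapped from every primer. From Proximal its S4 to S6 libraries ranged from 25.1 to 49.7 with a median of 39.9, against 15.8 to 35.2 with a median of 32.3 in S1 to S3. From Distal they ranged from 19.3 to 31.9 with a median of 24.5, against 9.43 to 33.2 with a median of 21.7 in S1 to S3. From Outside the median was 4.27 in S4 to S6 and 5.30 in S1 to S3, with 68 contacts in all 14 libraries.

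Each window was also placed by the fraction in which its mean share was highest. For Proximal this was S4 to S6 in 17 of 19 windows, where 39.1% of the 184 windows of the local zone with a mean of at least 10 contacts did the same. For Distal it was 18 of 19 windows, against 40.8% of 250, and for Outside 15 of 19, against 48.6% of 183. Only 8 of the 19 Outside windows reached that mean of 10 contacts, and all 8 were highest in S4 to S6. The rule that chose the stretch used this measure, so nothing is read from the excess. By fraction, the highest mean fell in S4, S5 and S6 in 8, 4 and 5 Proximal windows, 6, 4 and 8 Distal windows and 3, 4 and 8 Outside windows. With 5 kb windows the counts in S4 to S6 were 30, 33 and 29 of 38 for Proximal, Distal and Outside, where 42.3%, 43.0% and 44.8% of all 5 kb windows with a mean of at least 5 contacts did the same. The counts out of 38 take all 5 kb windows of the stretch, without that filter.

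The exact fraction was not stable between libraries. Replicate 1 and replicate 2 alone gave the same highest fraction in 7 Proximal, 5 Distal and 2 Outside windows of 19, and both gave one of S4 to S6 in 11, 12 and 7. The Proximal windows with a highest mean before S4 were 112190001 to 112200000, in S1, and 112200001 to 112210000, in S3. The second of these was also the only Distal window with a highest mean before S4, again S3. From Distal it had 40.1 as the median of both S4 to S6 and all 12 S libraries, and 40.6 as the median of S1 to S3.

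**Figure D3:**
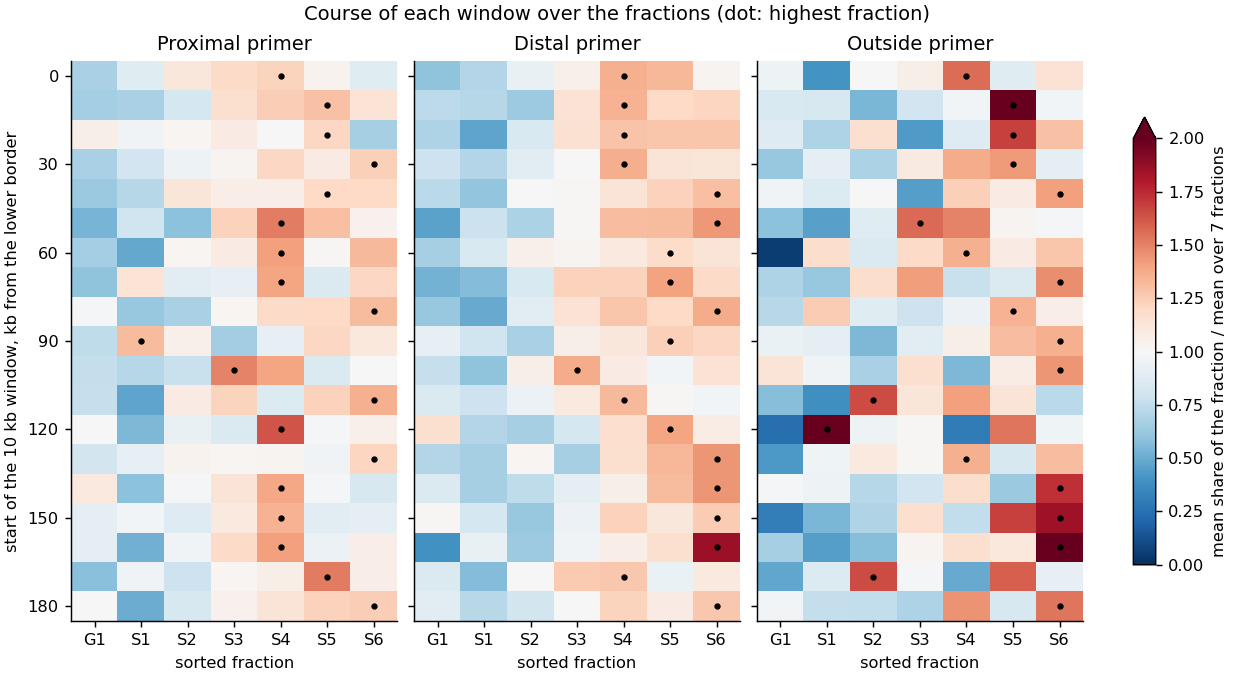
Mean share of each 10 kb window in each sorted fraction, divided by its mean over the 7 fractions (colour, 0 to 2), with windows down the page by the start of the window in kb from the lower border and a panel per primer. Dots mark the highest fraction, which is S4, S5 or S6 in 17 Proximal, 18 Distal and 15 Outside windows of 19.

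Single windows rarely separated all later from all earlier libraries. All 6 libraries of S4 to S6 stood above all 6 of S1 to S3 in 1 of 19 Proximal windows, where 0.543% of all windows did so, in 1 of 19 Distal windows against 0.8%, and in 0 of 19 Outside windows against 0.0%. The Proximal one was 112180001 to 112190000, with 57.2 to 70.9 and a median of 64.3 in S4 to S6, against 24.8 to 52.8 and a median of 39.3 in S1 to S3, although the G1 libraries, at 53.7 and 47.9, lay near the top of S1 to S3. The Distal one was 112140001 to 112150000, with 42.2 to 55.9 and a median of 44.5 in S4 to S6, against 12.6 to 41.2 and a median of 36.4 in S1 to S3, and 29.8 and 25.3 in G1. These were different windows for the 2 primers.

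Separation from G1 was more frequent. All S4 to S6 libraries stood above both G1 libraries in 7 Proximal windows, 11 Distal windows and 6 Outside windows of 19. Of all windows with a mean of at least 10 contacts, 13.0%, 13.2% and 7.1% did so, and 8 of the 19 Outside windows had that mean. The windows from 112150001 to 112160000 and from 112260001 to 112270000 show this from Distal. The first had 27.3 to 51.3 with a median of 41.3 in S4 to S6 and 11.9 and 15.6 in G1. The second had 22.2 to 43.8 with a median of 26.9 in S4 to S6 and 8.33 and 9.63 in G1, and its S6 libraries, at 43.8 and 41.2, stood well above S4 and S5.

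A limma fit over all windows of a primer was also run, on log2 of scaled contacts with Benjamini-Hochberg adjustment. Its counts stand beside the share of all windows called, and nothing is read from them, since these contrasts chose the stretch. For S4 to S6 minus S1 to S3, Distal had 15 of its 19 windows with a higher level at an adjusted p below 0.05, where 8.8% of all 250 windows tested were called higher and 5.2% lower. The called windows run from 112100001 to 112160000, from 112170001 to 112200000, from 112220001 to 112270000 and from 112280001 to 112290000, with log2 changes of 0.44 to 0.71. The highest was 0.71 ± 0.18 (SE) for 112230001 to 112240000, with a limma adjusted p of 0.00267, where the libraries ranged from 26.5 to 43.2 in S4 to S6 and from 15.2 to 31.8 in S1 to S3. The 4 windows not called had log2 changes of 0.22, 0.14, 0.19 and 0.27 from the lower to the upper end. All 15 calls were lost, to 0, when the fit did not let the spread depend on the mean.

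For the same contrast Proximal had 0 of 19 windows called, where 0.0% of 184 windows were called, with 6 windows at an unadjusted limma p below 0.05, as had 24 of all 184 windows, and a median log2 change of 0.32. The largest was 0.71 ± 0.20 (SE) for 112180001 to 112190000, with a limma adjusted p of 0.102. The number called was 4 when the second S1 library was left out, where 4.3% of all windows were called higher, and 1 when the first S2 library was left out, where 0.543% were. Outside had 8 of its 19 windows with enough contacts to test and 0 called, where 0.0% of 183 were called, with 2 at an unadjusted limma p below 0.05, as had 14 of all 183 windows, and a median log2 change of 0.47. Over all tested windows the median was -0.003, -0.02 and 0.001 for the same contrast in Proximal, Distal and Outside.

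For all S fractions minus G1, the fit called 1 Proximal window higher, where 3.26% of all windows were, 5 Distal windows, where 6.4% were, and 1 Outside window, where 0.546% were. The Proximal window was 112170001 to 112180000, with 45.0 to 81.8 and a median of 58.6 in the 12 S libraries, against 22.8 and 44.7 in G1, a log2 change of 0.87 ± 0.26 (SE) and a limma adjusted p of 0.0453. The Distal windows were 112100001 to 112110000, the 3 windows from 112150001 to 112180000, and 112260001 to 112270000. The last had the largest change, 1.25 ± 0.26 (SE) with a limma adjusted p of 0.000103, and 11.1 to 43.8 with a median of 23.7 in the S libraries, against 8.33 and 9.63 in G1. The Outside window was 112160001 to 112170000, described above with 1 contact in G1. It reached the mean of 10 contacts through its S libraries. Its fitted change and p-value both depend on the pseudocount, so neither is given and nothing is read from the call.

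The Proximal call against G1 hung on single libraries. It was lost without either S3 library or either S4 library, in fits that called 1.59% to 3.23% of all windows higher. The number of Proximal calls was 2 without the second G1 library, 5 without the first S1 library, 6 without the second S5 library and 3 without the first S6 library. In the same fits 2.73%, 9.63%, 9.29% and 6.15% of all windows were called higher, so calls moved over the whole zone and not in the stretch alone. The Distal calls against G1 numbered 2 without the first G1 library, where 4.72% of all windows were called higher. The 15 Distal calls of S4 to S6 over S1 to S3 numbered 8 without the second S2 library and 9 without the first S5 library, where 5.93% and 5.56% of all windows were called higher.

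Below the scale of windows, contacts were listed at single bases that gathered in tight groups. The stretch had 2546 distinct positions, of which 771 were in 1 library and 36 in at least 21 of the 42. Positions at most 4 bases apart formed 605 groups, on average 1 per 314 bases with a median of 182 bases from one to the next. The largest distance was 2826 bases. Of the 459 groups with at least 10 contacts and at least 2 positions, 237 (51.6%) had their leading 2 positions 3 bases apart. Of the 605 groups, 417 were read from all 3 primers. No hg19 sequence was used here, so the groups were not matched to DpnII sites.

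Contacts were spread over many such groups. The 61 best used groups, 1 in 10, held 26.7% of contacts, and 71 groups had a single contact. Proximal used 545 groups, Distal 553 and Outside 437. The most listed position from Proximal, 112197343, had 49 of that primer's 11859 contacts in the stretch, 0.413%, in 11 of 14 libraries. Its next 3 were 112155522 with 47, 112110309 with 45 and 112178161 with 45 contacts. Each of these positions held under 1 in 100 of the primer's contacts in the stretch.

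Contacts at the leading Proximal groups were not split between the fractions in 1 way. Here and below, such counts are sums over 6 libraries of S4 to S6, 6 of S1 to S3 and 2 of G1. A G1 count is therefore not on the scale of the other counts. The group of 112197343 had 46 Proximal contacts in S4 to S6, 20 in S1 to S3 and 2 in G1. The group of 112155522 had 36 in S4 to S6, 21 in S1 to S3 and 6 in G1. The group of 112110309 had 34 in S4 to S6, 29 in S1 to S3 and 5 in G1. The group of 112178161 had 36 in S4 to S6, 47 in S1 to S3 and 4 in G1, so the earlier fractions had the higher count there.

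From Distal the leading position was 112110068 with 40 contacts in 13 of 14 libraries, followed by 112119914 with 27, 112148908 with 27 and 112215677 with 26. The groups of the leading pair were close to even between the later and earlier S fractions. They had 32 Distal contacts in S4 to S6, 26 in S1 to S3 and 10 in G1 for 112110068 and 23, 21 and 0 in the same order for 112119914. The group of 112148908 had 30, 10 and 7, and that of 112215677 had 32, 14 and 8, so these had more contacts in S4 to S6 than in S1 to S3. Per library, G1 lay above S1 to S3 in both of these groups.

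From Outside the leading position was 112235766 with 16 contacts in 5 of 14 libraries, followed by 112147366 and 112287733 with 14 each and 112123716 with 13. The group of 112235766 had 17 Outside contacts in S4 to S6, 5 in S1 to S3 and 2 in G1, and that of 112287733 had 15, 5 and 0. Those of 112147366, with 7, 7 and 0, and of 112123716, with 9, 10 and 0, were even or nearly so between the later and earlier S fractions. Some exact bases were shared by primers and others were not. Position 112110068 was listed 38 times from Proximal and 40 times from Distal, and 112147366 was listed 39, 9 and 14 times from Proximal, Distal and Outside. Position 112235766 was listed 16 times from Outside and 0 times from the other primers, although its group had 11 Proximal and 31 Distal contacts beside 24 from Outside.

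The lower 95 kb held more of the contacts than the upper 95 kb, from all primers in most fractions. In Proximal libraries the lower part held 57.1% to 64.9% of the stretch's contacts in S4 to S6, against 58.7% to 63.5% in S1 to S3 and 52.3% and 56.4% in G1. In Distal libraries it held 56.5% to 61.1% in S4 to S6, against 56.7% to 59.8% in S1 to S3 and 50.6% and 56.6% in G1. The S groups overlapped for both primers, and both G1 values of each primer lay below the lowest S1 to S3 value. For Outside all groups overlapped.

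The borders were set by the rule, and the windows on either side of them had these values. At the lower border, the first window inside had a log2 ratio of S4 to S6 over S1 to S3 of -0.02 from Proximal, 0.48 from Distal and 0.54 from Outside, and the window just outside, 112090001 to 112100000, had 0.37, 0.62 and 0.66. At the upper border, the last window inside had 0.60, 0.49 and 0.79, and the window just outside, 112290001 to 112300000, had 0.30, 0.52 and 0.26. The level was lower beyond the upper border. From Distal the last window inside averaged 46.1 ± 9.1 in S4 to S6 and 32.7 ± 5.7 in S1 to S3, and the first outside 24.1 ± 6.8 in S4 to S6 and 16.8 ± 5.1 in S1 to S3 (SD, n = 6 each).

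Set beside the stretch were 3 regions of the same length, the 190 kb just below it, the 190 kb just above it, and the 190 kb at the same distance on the lower side of each viewpoint. They were not tested against the stretch. From Distal and Outside, the 190 kb just below had its highest mean share in S4, at 7.87% and 2.17%. From Proximal its highest means were in S3 and S4, with a mean share of 10.2%, 12.4%, 15.0%, 17.8%, 17.7%, 15.4% and 13.5% from G1 to S6. Those S3 and S4 means, with SDs of 0.90 and 1.04 (n = 2 each), did not differ beyond their spread. The log2 ratio of S6 over S4 was -0.17 for the stretch and -0.39 for the region below it. From this primer the stretch held more contacts relative to its lower neighbour later in S phase, with 0.684 to 0.861 times as many in S4 to S6, against 0.597 to 0.702 times in S1 to S3, but 0.784 and 0.827 times in G1. The Distal ratio behaved alike, with 0.993 to 1.33 in S4 to S6, against 0.862 to 0.996 in S1 to S3 and 1.14 and 1.41 in G1. For Outside the ratio was 0.798 to 1.26 in S4 to S6, against 0.978 to 1.11 in S1 to S3, with full overlap, and the log2 ratio of S4 to S6 over S1 to S3 was 0.43 in the stretch and 0.46 in the region below.

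The 190 kb just above, farther from the viewpoints, was poorer in contacts, and its later gain was of similar or larger size from 2 of the primers. The log2 ratio of S4 to S6 over S1 to S3 was 0.30 in the stretch and 0.42 in the region above from Proximal, 0.50 in the stretch and 0.39 above from Distal, and 0.43 in the stretch and 0.45 above from Outside. A higher level in the later fractions was therefore not particular to the stretch. Relative to the region above, the stretch held 2.87 to 3.596 times as many Proximal contacts in S4 to S6, against 3.12 to 4.51 times in S1 to S3 and 2.89 and 3.90 times in G1, a log2 ratio of S4 to S6 over S1 to S3 of -0.15. For Distal it held 2.57 to 3.97 times as many in S4 to S6, against 2.24 to 3.404 times in S1 to S3 and 2.35 and 2.33 times in G1. For Outside it held 1.21 to 1.66 times as many, against 1.11 to 1.79 times in S1 to S3 and 0.826 and 0.955 times in G1. The S groups overlapped for every primer. Both G1 libraries lay below all S4 to S6 libraries for Distal, and below all S libraries for Outside.

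From Proximal the share of the region above was 3.41% to 3.87% in S4 to S6, against 1.81% to 3.48% in S1 to S3. Its Distal share was 2.03% to 3.11% in S4 to S6, against 1.57% to 2.29% in S1 to S3 and 2.06% and 2.13% in G1. The S groups overlapped, with both S6 libraries, at 2.96% and 3.11%, highest. From Distal the log2 ratio of S6 over S4 was 0.02 in the stretch and 0.41 in the region above it. From Outside it was 0.17 in the stretch and 0.51 in the region above it.

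On the other side of the viewpoints no primer had all later libraries above all earlier ones. The Proximal share at the same distance was 2.18% to 2.80% in S4 to S6, against 2.15% to 3.04% in S1 to S3 and 3.27% and 3.18% in G1. The stretch had 3.89 to 5.83 times the contacts of this region in S4 to S6, against 2.69 to 5.07 times in S1 to S3 and 2.62 and 2.46 times in G1. For Distal these were 2.85 to 3.56 in S4 to S6, against 1.41 to 2.73 in S1 to S3 and 1.49 and 1.76 in G1, without overlap. The Distal share of the region on the other side was itself lower later, at 2.24% to 2.83% in S4 to S6 against 2.59% to 3.36% in S1 to S3. Its log2 ratio was -0.25, so the Distal separation holds that lower share as well as the higher share of the stretch. For Outside the stretch had fewer contacts than the region on the other side in all libraries but 1, with 0.861 to 1.10 times as many in S4 to S6, against 0.579 to 0.979 times in S1 to S3 and 0.514 and 0.656 times in G1.

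**Figure D4:**
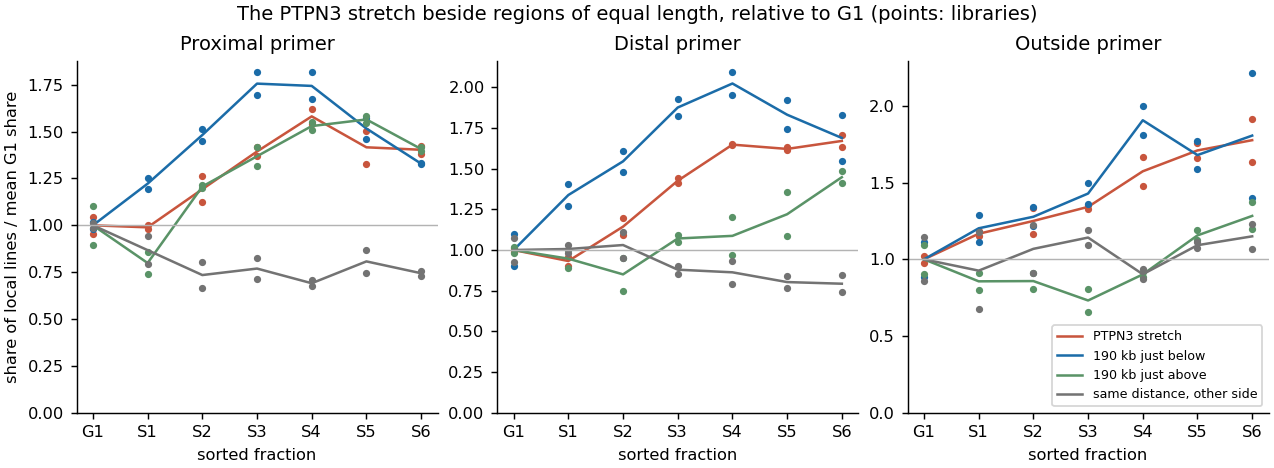
Share of local contacts divided by the mean G1 share (y axis from 0) against the sorted fraction for the PTPN3 stretch and 3 regions of 190 kb, in a panel per primer, with lines for means and points for libraries. From Proximal the stretch is at 12.9% of local contacts in S4 and 11.5% in S6, whereas the region just below has its highest means in S3 and S4 (17.8% and 17.7%) and 13.5% in S6, and the region on the other side lies below its G1 level in S phase.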

How the data were processed

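Sorted and fixed K562-FUCCI cells were digested with DpnII and ligated, per the labels' protocols, and junctions were read by extension of a biotinylated primer and ligation of an adapter with random molecular barcodes. Cutadapt, bedtools and hg19 are listed without versions in the submitters' processing notes, while for the aligner and for any collapsing of barcodes nothing is given in the sources used here. The authors deposited lists of chromosome, start and end, per the file headers, which hold no other measured unit or value. Lines were counted here by the start column as listed, and single positions are printed 1-based.

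The members and lists were chosen with earlier results of these data known. Named items are all member windows in counts and, per primer, the 4 highest and 2 lowest windows by mean share over 14 libraries, every window past the threshold, and the 4 most listed positions. Promoter sequences are RefSeq's on GRCh38.p14. Groups and replicate numbers came from the titles.

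Windows of 10 kb in the local zone with a mean of at least 10 lines were tested: 184 Proximal, 250 Distal and 183 Outside windows of 394. Lines were scaled to the mean local total of the primer, and log2(value + pseudocount) was fitted with limma, 7 groups, 14 libraries and eBayes with a trend. The pseudocount was 0.907, 1.84 and 0.945 lines for Proximal, Distal and Outside, so a change on this scale understates that of low windows. The window fit was run on simulated data with known changes. Those counts were independent and had a fixed spread, which need not hold for the listed lines, so the run is no check of the calls made here. A share's SD over 2 libraries has 1 degree of freedom, and depth before the lists were made is unknown. In their window levels, the differences between replicates were little correlated between fractions, and 4, 2 and 4 of 21 pairs of fractions had a correlation over 0.1 for Proximal, Distal and Outside. This does not exclude a difference between the replicate series. Local lines per distinct position were higher in replicate 1 in every fraction but S2 from each primer, as with 2.68 and 2.07 in Outside S1. Alternatives covered the denominator, distinct positions, the zones, the borders, window size, filters, pseudocount, trend, replicate block and leaving out libraries. The fits were made in R 4.3.3 with limma 3.58.1, and everything else in Python 3.11.15, with matplotlib 3.10.9 for figures, scipy 1.17.1 for intervals, pandas 2.3.3 and numpy 2.4.6.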

Additional observations from a re-analysis of the deposited data

Results flagged for a closer look

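In 1 window the 2 replicate series of a primer moved one way and those of another primer the other way. In 112120001 to 112130000, S4 to S6 over S1 to S3 had a log2 ratio of -0.09 from Proximal, beside 0.64 from Distal and 0.75 from Outside. The Proximal value was thus lower than the Distal and the Outside one. Taken from the means of the log2 ratios of replicate 1 and replicate 2 alone, the differences were -0.727 from Distal and -0.782 from Outside. From Proximal the libraries ranged from 44.2 to 91.3 contacts per 10000 local contacts in S4 to S6, against 54.7 to 77.5 in S1 to S3, and both S6 libraries were low, with a mean of 44.3. From Distal they ranged from 48.9 to 59.7 in S4 to S6, against 13.9 to 55.0 in S1 to S3. These differences between primers were not tested.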

How the results depend on the processing

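The direction of the share ratios held under every alternative run, and their size moved. The log2 ratio of S4 to S6 over S1 to S3 was 0.3795, 0.5859 and 0.4674 with all lines as denominator (Proximal, Distal, Outside) and 0.1876, 0.3858 and 0.3704 with distinct positions. For Distal it was 0.537 over chromosome 9 lines beyond 20 kb and 0.4674 with an excluded zone of 50 kb, and for Outside 0.3692 with borders moved in by 20 kb. The log2 ratio of S4 to S6 over G1 was 1.0097, 1.0819 and 1.019 with all lines, 0.8173, 0.9876 and 0.9404 with chromosome 9 lines, and 0.378, 0.6445 and 0.6263 with distinct positions. For Outside it was 0.7316 with an excluded zone of 50 kb, 0.7383 with a local zone of 1.5 Mb, 0.8489 and 0.7434 with borders moved in and out by 20 kb, and 0.7144 without its 4 most listed positions, an alternative chosen after seeing the data. Leaving out libraries gave 0.2488 to 0.3558, 0.4327 to 0.5656 and 0.389 to 0.464 over S1 to S3, and 0.4886 to 0.6199, 0.7026 to 0.7361 and 0.7144 to 0.7894 over G1.

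Counts of windows called in the stretch depended more on the setting. The share of all tested windows called higher in the same fit stands in brackets. Counts in 5 and 20 kb windows are out of other totals than counts in 10 kb windows. In 5 kb windows, 37 Proximal and 36 Distal windows of the stretch were tested. In 20 kb windows, 9 were tested from each primer. For S4 to S6 minus S1 to S3, Proximal had 4 (2.17%) instead of 0 (0.0%) with all lines as library size. In the same contrast Distal had 15 of 19 (8.8%) in the main fit and 0 of 19 (0.0%) without the trend. It had 9 of 36 (4.82%) in 5 kb windows and 8 of 9 (9.82%) in 20 kb windows. The part of the stretch called was thus smaller in 5 kb windows and larger in 20 kb windows than in the main fit. For all S minus G1, Proximal had 10 (20.1%) with all lines instead of 1 (3.26%), 2 (4.25%) in 5 kb windows, 3 (6.58%) in 20 kb windows, 4 (8.7%) with a pseudocount of 5 lines, and 0 with a mean of at least 5 lines (1.63%), without the trend (0.543%) or with distinct positions (1.87%). Distal had 12 (25.6%) instead of 5 (6.4%) with all lines, 8 (8.68%) in 5 kb windows and 3 (4.8%) without the trend, and Outside had 2 (2.48%) instead of 1 (0.546%) in 20 kb windows. With all lines, calls against G1 thus rose over the whole zone. The causes were not tested. Windows of 5 and 20 kb change both the number of windows and the contacts in each, under the same filter of 10 lines.

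Leaving out libraries gave 0 to 4 Proximal, 8 to 15 Distal and 0 to 0 Outside windows for S4 to S6 minus S1 to S3, and 0 to 6, 2 to 7 and 1 to 1 for all S minus G1. Of these, Proximal had 4 (4.3%) without S1 replicate 2 and 1 (0.543%) without S2 replicate 1 in the first contrast, and in the second 2 (2.73%) without G1 replicate 2, 5 (9.63%) without S1 replicate 1, 0 (1.59% to 3.23%) without either replicate of S3 or S4, 6 (9.29%) without S5 replicate 2 and 3 (6.15%) without S6 replicate 1. Distal had 8 (5.93%) without S2 replicate 2 and 9 (5.56%) without S5 replicate 1 in the first, and 2 (4.72%) without G1 replicate 1 in the second. Outside windows of 5 kb and distinct positions left no member to test. With the replicate number as a block, the counts were 0 and 1 for Proximal, 15 and 5 for Distal and 0 and 1 for Outside, so it changed no count of called windows in the stretch, and correlations of same-numbered libraries ran from -0.175 to 0.168.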
